A study of Homo sapiens with 12 samples.

Results

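The genes described here encode the proteins of the cytosolic ribosome. They were chosen by name: every symbol of the count table that begins with RPL or RPS, carries a number and at most the suffix A, L, X or AX, together with RPLP0, RPLP1, RPLP2 and RPSA. The rule found 81 of the 28278 genes in the table, 49 named for the large subunit and 32 for the small subunit. RPL10L had 0 counts in every library, so 80 genes passed the filter on low counts and were tested.

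RNA was sequenced from K562, a human erythroleukaemia line labelled as bone marrow, in which SLC48A1 (HRG1), a heme transporter gene, was intact (WT) or knocked out (HRG1-KO). Each genotype was left without treatment or was given 0.75 mM sodium butyrate, a histone deacetylase inhibitor that drives these cells towards the erythroid lineage. Butyrate was added 24 h after plating and again 48 h later, cells were collected 6 h after that second dose, and the series places all samples at day 8 of differentiation. This gave 4 groups of 3 libraries: untreated WT, treated WT, untreated KO and treated KO. All 4 groups grew in the same medium; the number of KO clones and the way the knockout was made are not given in the sources used here, and nothing states that replicates came from separate cultures, so the tests measure the spread between these libraries, which may be technical.

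A ribosome is built from a small subunit, which decodes mRNA, and a large subunit, which joins amino acids and holds the exit tunnel. Most ribosomal protein mRNAs begin with a terminal oligopyrimidine (TOP) tract, a run of C and T letters at the start of transcription through which the mTORC1 pathway sets their translation. Red cell precursors depend on a full supply of ribosomes while they fill with haemoglobin, and inherited defects in single ribosomal proteins cause Diamond-Blackfan anaemia.

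Library totals ranged from 19963594 to 30348538 counts. SLC48A1 held at most 313 counts in a KO library and at least 1357 in a WT library, so the genotype labels held in all 12. All 10 markers of the K562 line were detected. Their summed level was 8040 to 17600 CPM (counts scaled by TMM to a common library size) in untreated WT, 26200 to 56600 in treated WT, 3530 to 6210 in untreated KO and 4320 to 6380 in treated KO. Markers of T cells and of B cells summed to at most 15.5 and 13 CPM, and those of epithelium to at most 74.2, with MS4A1 and KRT5 at 0 counts in every library. The 3 fibroblast genes summed to at most 5.02 CPM in untreated libraries and to between 43.9 and 154 in treated ones. The part of these marker differences in the results below was not tested.

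Ribosomal protein genes took mean shares of 10.2% to 11.7% of the counts of a group, and their share varied far more among KO libraries than among WT libraries. In untreated WT the share of all counts was 10.3%, 11.5% and 11% in replicates 1, 2 and 3 (10.9% ± 0.603, SD, n = 3). In treated WT it was 9.70%, 10.6% and 11.2% (10.5% ± 0.755). These WT libraries overlapped. In untreated KO the share was 11.5%, 9.36% and 14.3% (11.7% ± 2.48), and in treated KO it was 9.63%, 7.53% and 13.3% (10.2% ± 2.92). The KO libraries numbered 2 were the lowest of all untreated and of all treated libraries, and the KO libraries numbered 3 were the highest. Counting error was small beside this spread: the Wilson 95% confidence interval of the lowest share was 7.524% to 7.544%. Within each number the share was lower in treated than in untreated KO, by 1.87, 1.83 and 1.00 percentage points, while in WT the differences between treated and untreated libraries were -0.60, -0.90 and 0.20 percentage points. No test was made of these shares. RNA28SN5, a ribosomal RNA gene, took between 0.673% and 5.63% of counts, with the library numbered 1 highest in each group. Leaving it out of the total moved no group mean by more than 1 SD.

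**Figure D1:**
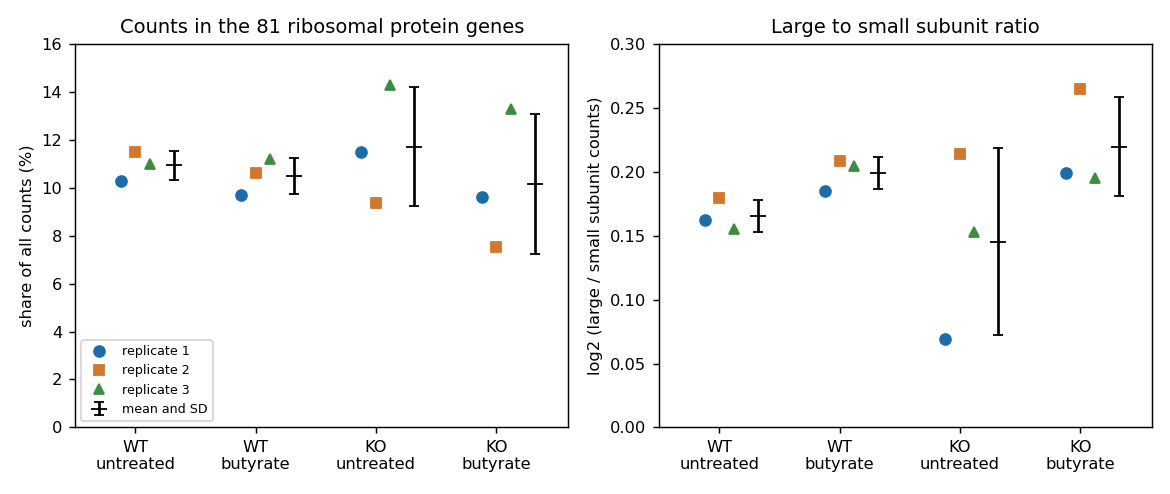
Left, share of all counts (%) held by the 81 ribosomal protein genes in each library; right, log2 ratio of summed large to summed small subunit counts. Coloured points are libraries by replicate number and the black bars give the mean and SD of 3 libraries; KO shares run from 7.53% to 14.3%, outside the WT range of 9.70% to 11.5% at both ends.

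The share was unevenly spread over the set. Per kilobase of annotated transcript, RPS18 reached 16700 CPM and RPS9 reached 14500 CPM in untreated WT, while the next highest, RPS2, reached 3470 and RPLP0 3380. The transcripts made in these cells were not measured, so this order holds for annotated lengths only. Both leading genes encode small subunit proteins, and together they held 17.8% to 19.4% of the counts of the set in every library. At the other end, RPL17 (12 to 54 counts in a library), RPS10 (15 to 80) and RPL36A (2 to 24) were near the limit of detection although each encodes a core protein of the ribosome. Each of these 3 genes lies wholly inside the span of a RefSeq read-through gene that joins it to its neighbour, RPL17-C18orf32, RPS10-NUDT3 and RPL36A-HNRNPH2, and all 3 read-through genes held 0 counts in all libraries. RPL36A lies at chrX:101391011-101396155, within the read-through span chrX:101391011-101414133 (GRCh38.p14). How the authors' counting treated reads shared by such genes is not given in the sources used here, so the low values of these 3 genes are uncertain. The table also held 31 ribosomal protein pseudogenes, which took 0.027% to 0.0496% of counts; reads that fit both a gene and such a copy could have been counted with either.

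With sodium butyrate no ribosomal protein gene of WT cells rose or fell at an adjusted p of 0.05. The median log2 change over the 80 tested members was -0.08, with 57 below 0 (median over all 15805 genes tested 0.025). Among all genes 1.80% rose and 0.55% fell, and among the 2121 tested genes of at least 100 CPM, which include 74 members, 1.98% changed in either direction. The median log2 change of these 2121 genes was -0.11, with 1332 below 0. At an unadjusted p under 0.05 there was a single member, where 2849 of all 15805 genes tested were found. DESeq2, which called 1331 of all genes, called the same member: RPL3L, the paralogue of RPL3 known from striated muscle, described below. The 3 members with the highest log2 changes were RPL3L (2.92), RPL28 (0.36) and RPL18 (0.25), and the 3 lowest were RPL36A (-0.98), RPL39L (-0.61) and RPL17 (-0.44).

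In KO cells no single member passed the threshold with butyrate either, while most had log2 changes below 0. The median log2 change was -0.32, and 74 of 80 members were below 0 (median over all genes 0.00). The 2121 genes of at least 100 CPM had a median of -0.16, with 1438 below 0. Among all genes 2.80% rose and 0.595% fell, and of genes of at least 100 CPM 2.22% changed. At an unadjusted p under 0.05 there were 10 of 80 members, where 3122 of 15805 genes tested and 390 of 2121 genes of at least 100 CPM were found. DESeq2 called 0 members at its adjusted p, where it called 1538 genes in all. The 3 lowest log2 changes belonged to RPL36A (-0.96), RPS27A (-0.76) and RPS29 (-0.71), and the 3 highest to RPL3L (1.84), RPS10 (0.39) and RPL17 (0.28).

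The shift had the same direction within each replicate number. Comparing KO libraries of the same number, the median difference in log2 CPM was -0.37, -0.45 and -0.21 for numbers 1, 2 and 3, with 76, 75 and 66 of 80 members lower. In WT the medians were 0.05, -0.25 and -0.04, with 32, 71 and 47 lower. In KO 66 of 80 members were lower in all 3 pairs, where 27.0% of all genes were. In WT 23 of 80 were, where 22.0% of all genes were. Complete separation of the groups ran the other way. In WT all treated libraries lay below all untreated ones for 15 of 80 members and above them for 2, where 10.4% and 11.3% of all genes did. In KO this was so for 1 member and for none, where 11.8% and 12.6% of all genes did.

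Since libraries with the same number deviated together, the fit was repeated with the replicate number as a block. In treated KO against WT the highest correlation between different numbers (0.343) was above the lowest between same numbers (0.315). Under the replicate block 5 members fell with butyrate in KO: RPS27A (adjusted p = 0.0197), RPL30 (0.0392), RPS29 (0.0451), RPS23 (0.0452) and RPL21 (0.0497). This is 5 of 80 lower and none higher, where that fit called 3.92% of all genes lower and 7.80% higher. In WT the block called RPL3L alone, as higher (adjusted p = 0.0316), where it called 5.47% of all genes higher and 3.14% lower. RPS27A, whose product carries ubiquitin fused to a small subunit protein, showed the pattern most clearly: it stood at 266, 207 and 319 CPM in untreated KO and at 156, 105 and 207 CPM in treated KO, with each treated library below its same-numbered partner. In WT it stood at 190, 187 and 183 CPM without and 168, 139 and 165 CPM with butyrate. RPS23, which lines the decoding centre, stood at 1380, 993 and 1720 CPM in untreated KO and 875, 550 and 1090 in treated KO.

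The size of the KO median rested on single libraries. It was -0.13 without the treated KO library 2 and -0.18 without the untreated KO library 3, and it was -0.48 without the untreated KO library 2 and -0.54 without the treated KO library 3. With libraries scaled by their totals alone it was -0.21, beside a median of 0.12 over all genes.

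Whether butyrate acted differently in the KO was tested directly with the interaction, the butyrate change in KO minus that in WT. No member and 0% of all genes passed in either direction with edgeR. No member had an unadjusted p under 0.05, where 658 of 15805 genes did. DESeq2 called no member, where it called 81 genes in all. Of the 2121 genes of at least 100 CPM, 1276 had an interaction below 0 (median -0.06). The median interaction of the members was -0.26, with 75 of 80 below 0 (all genes -0.02). It ranged from -0.50 without the treated KO library 3 to -0.07 without the treated KO library 2. The lowest values belonged to RPL3L (-1.07), RPS27A (-0.51) and RPS27 (-0.49), and the highest to RPL17 (0.72), RPS10 (0.47) and RPS27L (0.22).

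**Figure D2:**
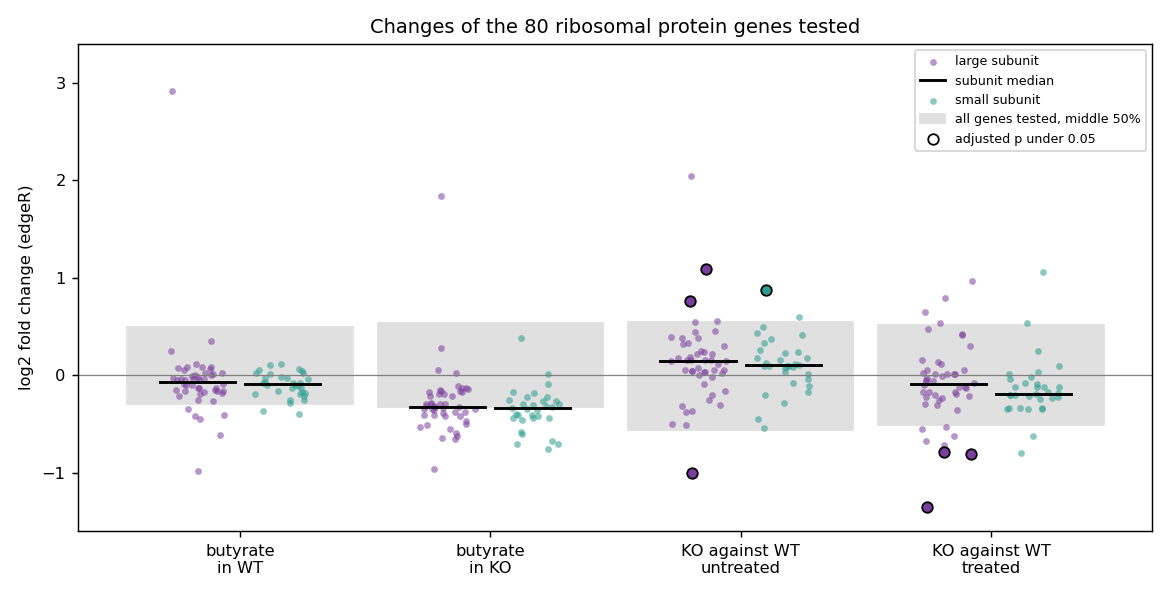
Log2 fold changes (edgeR) of the 80 members in 4 comparisons, large subunit in purple and small subunit in green; black lines are subunit medians, ringed points passed an adjusted p of 0.05 and grey boxes span the middle 50% of all genes tested. Of 80 members 71, 37, 72 and 64 lie inside the grey box, in the order drawn. With butyrate in KO 42 lie below it and the median is -0.32. There the middle 50% of genes of at least 100 CPM, which is not drawn, ran from -0.37 to 0.08.

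With butyrate in KO the median log2 change was -0.32 over 48 large subunit genes and -0.34 over 32 small subunit genes. In WT it was -0.07 and -0.09. Between genotypes it was 0.15 and 0.10 without treatment and -0.09 and -0.19 with butyrate. The log2 ratio of summed large to summed small subunit counts was 0.16, 0.18 and 0.16 in untreated WT and 0.18, 0.21 and 0.20 in treated WT. It was 0.07, 0.21 and 0.15 in untreated KO and 0.20, 0.26 and 0.20 in treated KO. Each treated library lay above its same-numbered untreated partner, in 6 of 6 pairs. In WT the treated and untreated libraries did not overlap, and in KO they did. Group means were 0.17 ± 0.01, 0.20 ± 0.01, 0.15 ± 0.07 and 0.22 ± 0.04 (SD, n = 3) in the same order. The sums are dominated by the most abundant genes. Taken from the median CPM of each subunit instead, the ratios were -0.18, -0.16, -0.06 and -0.11, so that the mean was lower with butyrate in KO. No test was made of this ratio.

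Between genotypes 6 members passed the threshold in at least 1 comparison, in both directions. Without treatment 3 members were higher in KO than in WT (RPL21, RPS29, RPL37A) and RPL10 was lower. With butyrate RPL10, RPLP2 and RPL39 were lower and none was higher. Thus 4 and 3 of 80 members passed, whereas 11.7% of all genes were higher and 10.9% lower without treatment, and 10.1% were higher and 8.89% lower with butyrate. Among genes of at least 100 CPM, 20.4% and 17.2% changed.

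RPL10 joins the large subunit as one of its last proteins and lies close to the site where transfer RNA is accommodated. It stood at 2260, 2430 and 2240 CPM in untreated WT and at 1180, 932 and 1340 CPM in untreated KO. With butyrate it stood at 2160, 1680 and 2000 CPM in WT and at 764, 486 and 1040 CPM in KO. Every KO library lay below every WT library. The log2 change in KO was -1.0 (SE 0.26, edgeR adjusted p = 0.016) without treatment and -1.35 (SE 0.27, adjusted p = 0.00371) with butyrate, a 2.00-fold and a 2.54-fold lower level. The second call held in all 12 fits that left out a library (adjusted p 0.00172 to 0.015). The first was lost without the untreated WT library 2 or the untreated KO library 2 (adjusted p from 0.0505 to 0.0613).

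RPL21, a large subunit protein, stood at 444, 520 and 608 CPM in untreated WT and at 1150, 810 and 1400 CPM in untreated KO, with no overlap. The log2 change was 1.09 (SE 0.29, adjusted p = 0.0158). In treated cells the values were 494, 312 and 433 CPM in WT and 757, 472 and 916 CPM in KO, which overlapped (log2 change 0.79, adjusted p = 0.0729, and 0.0122 with the replicate block). The untreated call was lost without the untreated WT libraries 1 or 2 or the untreated KO library 3 (adjusted p 0.0519 to 0.0703), and without all libraries numbered 1 (adjusted p = 0.0761).

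RPS29, a small zinc-binding protein of the small subunit and a Diamond-Blackfan anaemia gene, stood at 221, 235 and 223 CPM in untreated WT and at 395, 304 and 548 CPM in untreated KO. The groups did not overlap, and the log2 change was 0.88 (SE 0.29, adjusted p = 0.0462). With butyrate it stood at 201, 136 and 190 CPM in WT and 264, 155 and 345 CPM in KO, which overlapped. RPL37A, a zinc-binding protein of the large subunit, stood at 626, 676 and 626 CPM in untreated WT and at 1130, 815 and 1330 CPM in untreated KO, also with no overlap (log2 change 0.77, SE 0.26, adjusted p = 0.0481). With butyrate it stood at 631, 500 and 580 CPM in WT and 860, 545 and 1070 CPM in KO. Both untreated calls lay close to the threshold. That of RPS29 was lost in 7 of 12 fits that left out a library (any untreated WT library, the treated WT library 3, the untreated KO libraries 1 or 3, the treated KO library 1, adjusted p 0.0529 to 0.194). That of RPL37A was lost without any of the same 7 or the treated WT library 2 (adjusted p 0.0566 to 0.177). Both were also lost without all libraries numbered 1 (adjusted p = 0.113 and 0.153).

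RPLP2, an acidic protein of the stalk that recruits translation factors, stood at 1020, 895 and 857 CPM in treated WT and at 507, 360 and 718 CPM in treated KO. The log2 change was -0.81 (SE 0.24, adjusted p = 0.0359). Without treatment it stood at 987, 925 and 851 CPM in WT and 705, 520 and 723 CPM in KO (log2 change -0.50, adjusted p = 0.163). Its stalk partners did not pass: the treated log2 change was -0.11 for RPLP0 and 0.06 for RPLP1. RPL39, one of the smallest ribosomal proteins, sits at the exit tunnel. It stood at 678, 678 and 705 CPM in treated WT and at 405, 262 and 527 CPM in treated KO (log2 change -0.79, SE 0.25, adjusted p = 0.0465). Without treatment it stood at 699, 782 and 631 CPM in WT and 505, 380 and 610 CPM in KO. Neither gene's genotype groups overlapped in treated or in untreated cells. The RPLP2 call was lost without the untreated WT library 2, any treated WT library or the treated KO libraries 1 or 2 (adjusted p 0.0518 to 0.0999). The RPL39 call was lost without any of the 6 WT libraries, the untreated KO library 1 or the treated KO libraries 1 or 2 (adjusted p 0.0538 to 0.132). Both were also lost without all libraries numbered 1 (adjusted p = 0.123 and 0.101).

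**Figure D3:**
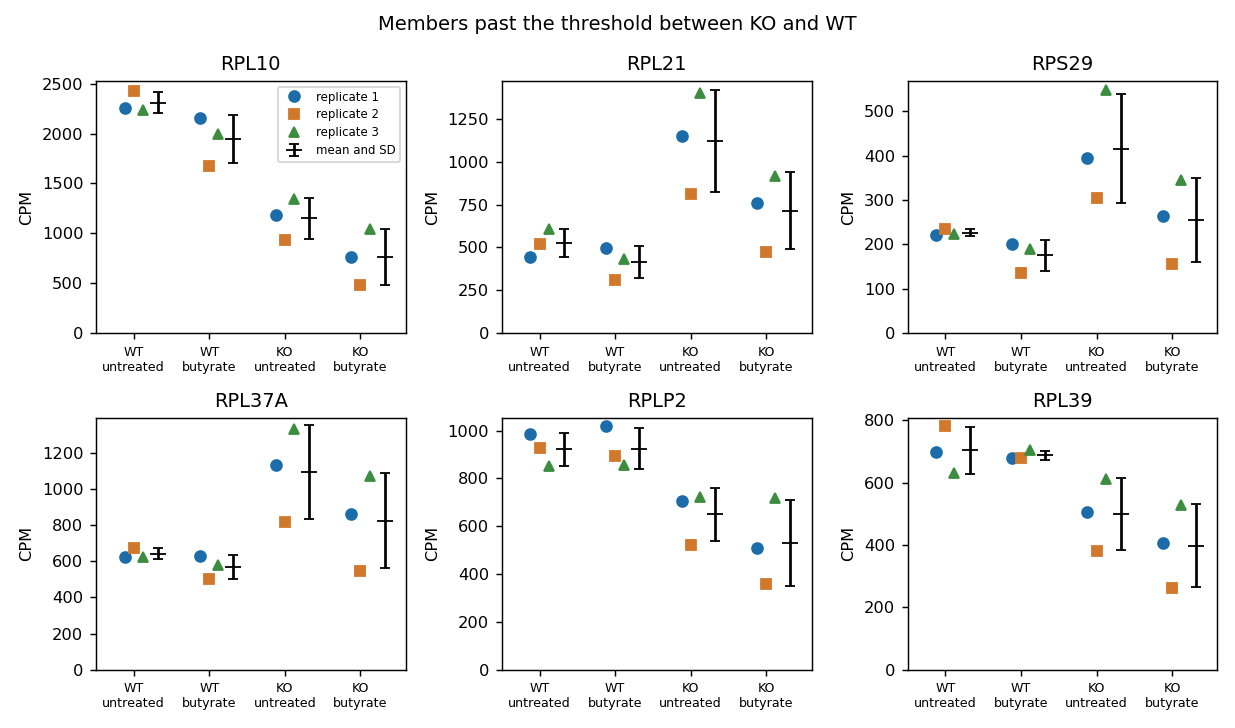
CPM (TMM-scaled) of the 6 members past the threshold between genotypes, by library; points are libraries by replicate number and black bars the mean and SD of 3 libraries, on axes that start at 0. RPL10, RPLP2 and RPL39 are lower in every KO library than in every WT library of the same treatment, and RPL21, RPS29 and RPL37A are higher in every untreated KO library.

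With the replicate block more members passed. Without treatment RPL35A (adjusted p = 0.0294) and RPL3L (0.0422) joined the members that were higher, giving 5 higher and 1 lower of 80, where 16.9% and 16.1% of all genes were called. With butyrate 9 members were lower and RPL21 was higher, of 80, where 13.6% of all genes were called lower and 15.6% higher. The added lower members were RPS20 (0.0144), RPL7 (0.0173), RPL27A (0.0211), RPS24 (0.0275), RPL30 (0.0324) and RPL28 (0.0479). Groups did not overlap for 14 members without treatment (9 higher, 5 lower in KO), where 22.2% of all genes were higher and 20.2% lower in this way. With butyrate they did not overlap for 10 members, all lower, where 17.9% of all genes were higher and 16% lower. The set as a whole showed no steady genotype difference. The median log2 change was 0.12 without treatment, but -0.06 without the untreated KO library 3 and 0.25 without the untreated KO library 2. With butyrate it was -0.12, but 0.05 without the treated KO library 2 and -0.38 without the treated KO library 3.

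The windows below show the annotated start of transcription of these 6 genes, because a TOP tract at that place is the feature the family is known for. Each holds 15 bases before the start, the start itself and 14 bases after it, from RefSeq promoters (GRCh38.p14). Capitals mark the unbroken run of C and T that holds the first transcribed base, and no capitals mean that this base is not C or T.
RPL10, chrX:154398050-154398079, plus strand: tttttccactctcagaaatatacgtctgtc
RPL21, chr13:27251543-27251572, plus strand: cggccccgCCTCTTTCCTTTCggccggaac
RPS29, chr14:49598696-49598725, minus strand: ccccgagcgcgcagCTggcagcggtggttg
RPL37A, chr2:216498829-216498858, plus strand: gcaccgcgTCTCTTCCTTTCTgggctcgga
RPLP2, chr11:809952-809981, plus strand: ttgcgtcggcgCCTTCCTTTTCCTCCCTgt
RPL39, chrX:119791616-119791645, minus strand: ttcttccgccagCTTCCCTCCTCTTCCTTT

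The runs of RPL21 and RPL37A, which were higher in untreated KO, were 13 bases long, and those of RPLP2 and RPL39, which were lower in treated KO, were 17 and 22, the last running 4 bases past the window's end, so that 18 are shown. RPL10 had none and RPS29 had 2 bases at the annotated start. A run of 5 or more was found in 44 of the 64 members with a promoter entry (68.8%) and in 8.97% of 11688 tested genes. Genes of either direction were thus found with and without a long run at the annotated start. The start used in these cells was not measured, and a run at another start would be missed. In the whole 300-base RefSeq promoters (250 bases before the start to 50 after it), searched on both strands, CGGAAG was found in 62.5% of members and 30.9% of tested genes, GGGCGG in 56.2% and 67.4%, and AAGATGG in 12.5% and 7.42%. A match is a description of letters and not a bound site.

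The genotype change of the 6 members resembled that of the genes around them. RPL10 lies at chrX:154398065-154402339, and 69 other tested genes start within 2 Mb of it. Their median log2 change was -1.15 without treatment and -1.12 with butyrate, and 34 and 32 of them were lower past the threshold. Around RPL21 on chromosome 13 the 19 neighbours had medians of 0.80 and 0.60, with 17 of 19 above 0 in both comparisons. On that chromosome the median of all 267 tested genes was 0.94 and 0.83. Around RPS29 on chromosome 14 the 26 neighbours had medians of 0.67 and 0.59, with 24 of 26 above 0, and the 475 tested genes of the chromosome had medians of 0.63 and 0.57. Around RPL37A on chromosome 2 the medians of 24 neighbours were 0.55 and 0.58, while all 980 tested genes of the chromosome had 0.10 and 0.089. Around RPLP2 on chromosome 11 those of 65 neighbours were -0.71 and -0.69, while all 858 tested genes had -0.13 in both comparisons, and around RPL39 those of 29 neighbours were -0.58 and -0.54.

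Over the whole set the resemblance was looser. For 77 members at least 10 neighbours that are not members themselves were tested. The member's log2 genotype change and the median of these neighbours correlated across genes. Pearson's r was 0.59 and Spearman's rho 0.60 without treatment, and they were 0.71 and 0.61 with butyrate. The member and its neighbours' median had the same sign for 49 of 77 members without treatment and 53 of 77 with butyrate. Without the 6 members above, over 71, r was 0.38 and 0.57, rho was 0.50 and 0.52, and 43 and 47 of 71 had the same sign. Members on 1 chromosome share neighbours, and members and neighbours share libraries, so these are descriptions. For butyrate r was 0.14 in WT and 0.29 in KO, rho was 0.26 and 0.42, and 41 and 33 of 77 had the same sign. Chromosomes differed in how far members followed them. All 8 members on chromosome 3 were above 0 in untreated KO (median 0.42, all 826 tested genes of the chromosome 0.45), but with butyrate 5 of 8 were (median 0.085, all genes 0.45). On chromosome X 3 of 4 were below 0 (median -0.33, all 514 tested genes -0.26). On chromosome 15 the 4 members had a median of 0.20 in untreated KO, while all 514 tested genes had -0.24. RPL17, the single member on chromosome 18, had 0.41 in treated KO beside -0.61 for that chromosome. The cause of the shared direction was not tested.

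**Figure D4:**
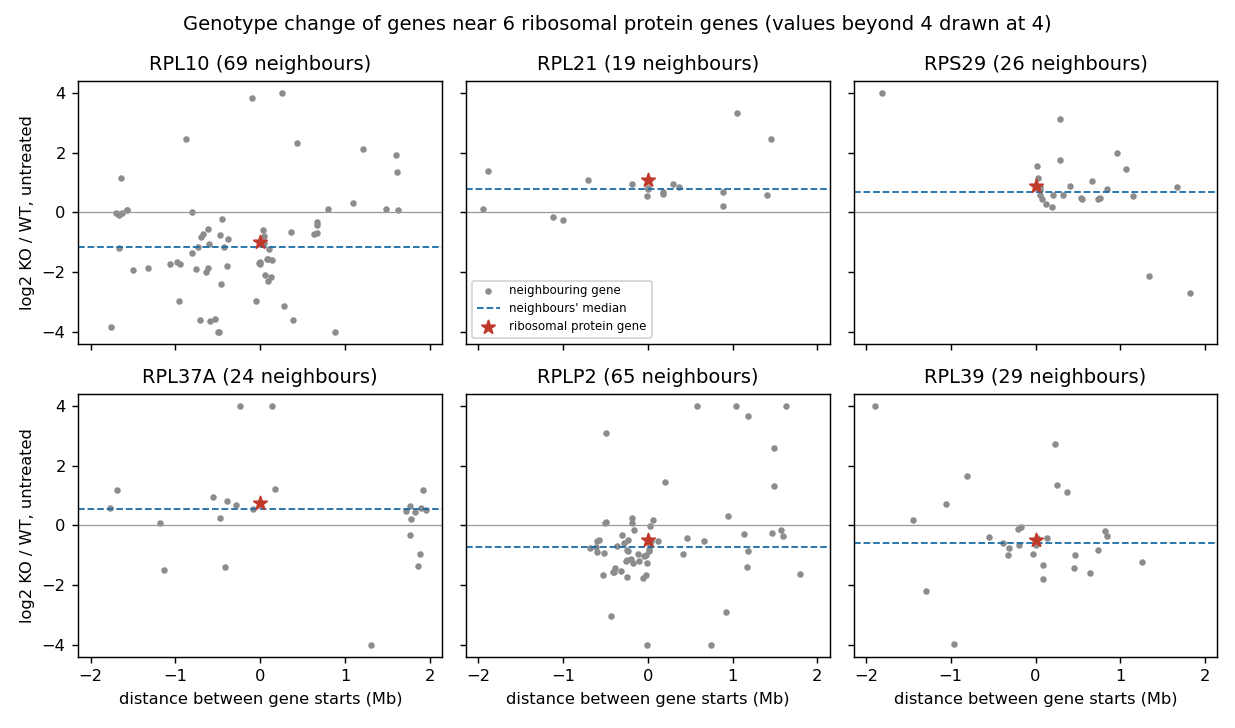
Log2 change of untreated KO against untreated WT (edgeR) for genes within 2 Mb of each of 6 members, by distance between gene starts; grey points are neighbours, the dashed line is their median and the red star is the ribosomal protein gene. Each star lies on the same side of 0 as the neighbours' median, as for RPL10 (-1.0 beside -1.15) and RPL21 (1.09 beside 0.80).

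Several ribosomal proteins have paralogues, second genes for nearly the same or a related protein. Some of these are used in other tissues or at low level. Depth and scaling cancel in the ratio of both counts within a library, so each pair was compared as a log2 ratio by a two-sided exact permutation test, whose smallest p for 3 libraries against 3 is 0.10. Adjusted over the 7 pairs with counts in each of 4 comparisons, the lowest p was 0.233. A test with this limit cannot call any ratio changed and does not show that a ratio stayed the same, so the ratios are given as descriptions. The 2 pairs below have coding sequences of equal length and are printed to show how far reads can tell them apart. Sequences are GENCODE release 29 (GRCh38), 5′ to 3′, with capitals at the positions where the 2 genes of a pair differ.
RPL39, chrX:119786684-119791576, minus strand: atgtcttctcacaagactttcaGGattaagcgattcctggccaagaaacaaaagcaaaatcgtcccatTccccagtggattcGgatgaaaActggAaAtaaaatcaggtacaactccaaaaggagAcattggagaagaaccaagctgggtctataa
RPL39L, chr3:187121145-187121300, minus strand: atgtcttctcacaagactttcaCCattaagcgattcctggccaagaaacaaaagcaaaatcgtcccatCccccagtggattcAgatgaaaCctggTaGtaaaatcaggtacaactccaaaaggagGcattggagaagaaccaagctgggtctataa
RPS27, chr1:153990797-153992093, plus strand: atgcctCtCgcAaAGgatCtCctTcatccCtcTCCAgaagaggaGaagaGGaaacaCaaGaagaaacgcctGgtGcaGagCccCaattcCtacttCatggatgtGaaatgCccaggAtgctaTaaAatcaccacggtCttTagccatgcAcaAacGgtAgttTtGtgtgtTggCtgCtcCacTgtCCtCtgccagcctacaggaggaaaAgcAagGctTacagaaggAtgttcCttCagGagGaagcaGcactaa
RPS27L, chr15:63154032-63157405, minus strand: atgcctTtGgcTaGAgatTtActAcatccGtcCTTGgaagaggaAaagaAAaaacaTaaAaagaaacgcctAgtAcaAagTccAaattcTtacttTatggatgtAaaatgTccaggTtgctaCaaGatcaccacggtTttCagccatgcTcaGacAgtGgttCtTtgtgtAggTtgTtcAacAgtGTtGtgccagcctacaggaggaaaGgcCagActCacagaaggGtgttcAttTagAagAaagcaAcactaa

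RPL39 and RPL39L differ at 8 of 156 coding bases (94.9% identity), and the longest stretch without a difference is 44 bases, so some short read parts cannot be told apart. RPS27 and RPS27L differ at 56 of 255 bases (78.0% identity), 48 of them at the last base of a codon. RPL39L, best known from testis, was far below its parent in every library. Its log2 ratio to RPL39 was -6.94, -5.67 and -5.90 in untreated WT and -5.47, -4.89 and -4.79 in untreated KO, with no overlap (difference 1.12, exact permutation p = 0.10, adjusted p = 0.233). With butyrate it was -7.83, -6.28 and -6.29 in WT and -6.32, -5.14 and -4.72 in KO, which overlapped (difference 1.41). Taken between libraries of the same number, the KO ratio was above the WT ratio by 1.47, 0.78 and 1.11 without treatment and by 1.51, 1.15 and 1.58 with butyrate, so in all 6 pairs. RPL39 lies on chromosome X and RPL39L on chromosome 3, whose tested genes had the chromosome medians given above.

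RPS27L had a log2 ratio to RPS27 of -3.21, -3.41 and -3.67 in untreated WT and -4.14, -4.28 and -4.32 in untreated KO. All KO libraries lay below all WT libraries (difference -0.82, exact permutation p = 0.10, adjusted p = 0.233). With butyrate the ratios were -4.47, -3.18 and -3.68 in WT and -3.97, -3.62 and -3.90 in KO, and the genotypes overlapped (difference -0.05). In KO the treated ratios were above all untreated ones (difference 0.42, exact permutation p = 0.10, adjusted p = 0.233).

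RPL3L, whose parent RPL3 reaches into the peptidyl transferase centre, was nearly silent without butyrate. It held 5, 8 and 3 counts in untreated WT, 14, 50 and 85 in treated WT, 17, 15 and 42 in untreated KO and 28, 129 and 167 in treated KO. In CPM this was 0.25 ± 0.14, 1.85 ± 1.02, 1.01 ± 0.36 and 3.64 ± 2.12 (SD, n = 3), beside 3170 to 4150 for RPL3. Treated WT lay above untreated WT in every library, while in KO the groups overlapped. The log2 change with butyrate was 2.92 in WT (SE 0.75, edgeR adjusted p = 0.0656) and 1.84 in KO (SE 0.69, adjusted p = 0.158). The first passed with DESeq2 (adjusted p = 0.00397) and with the replicate block (adjusted p = 0.0316), and both passed without the libraries numbered 1 (adjusted p = 0.0138 and 0.0402). The WT change also passed without the treated WT library 1 or the treated KO library 1. The log2 ratio to RPL3 differed by 2.66 in WT and 1.83 in KO (exact permutation p = 0.10 for each, adjusted p = 0.60 and 0.233). Even at its highest, 167 counts, RPL3L remained a trace beside RPL3.

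**Figure D5:**
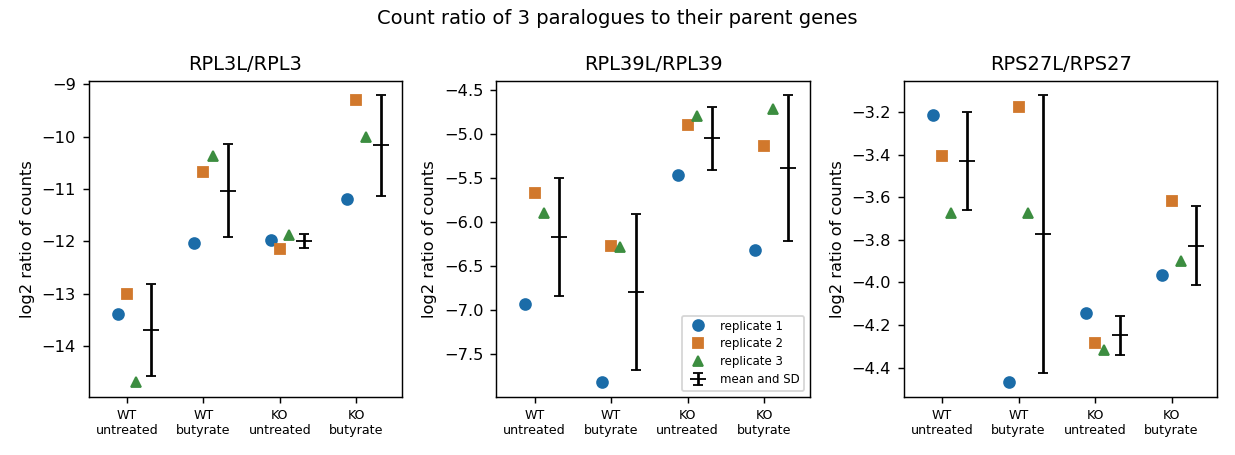
Log2 ratio of the counts of 3 paralogues to those of their parent genes (0.5 added to each count), by library; points are libraries by replicate number and black bars the mean and SD of 3 libraries. RPL3L to RPL3 is higher in all treated than all untreated WT libraries, RPL39L to RPL39 is higher in all untreated KO than untreated WT libraries, and RPS27L to RPS27 is lower there.

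Of the paralogues named outside the pattern, RPL36AL was higher in KO with butyrate, at 77.1, 83.5 and 91.1 CPM in WT and 137, 116 and 147 CPM in KO (log2 change 0.67, SE 0.20, edgeR adjusted p = 0.0301). Without treatment the log2 change was 0.58 (adjusted p = 0.0506, and 0.0174 with the replicate block). RPL36AL lies on chromosome 14, 0.048 Mb from RPS29, and was counted among the 26 neighbours of RPS29 above. Their medians were 0.67 without treatment and 0.59 with butyrate, and the part of location was not tested. RPL7L1, RPL22L1 and RPL26L1 passed in no comparison. Their treated genotype log2 changes were -0.41, 0.56 and 0.31, and their log2 ratios to RPL7, RPL22 and RPL26 overlapped between the groups of each comparison. The ratio of RPL36AL to RPL36A (treated above untreated in every KO library, exact permutation p = 0.10, adjusted p = 0.233) rests on the near-absent counts of RPL36A and is uncertain.

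Some members are also known for other roles or from inherited disease. RPL5 and RPL11, which sit together in the central protuberance of the large subunit, had butyrate log2 changes in KO of -0.30 and -0.13. RPS14 and RPS19, whose loss impairs red cell formation, had -0.29 and -0.27. RPSA, also known as a laminin receptor, had -0.67 (adjusted p = 0.213), below the member median of -0.32, and was among the 10 members with an unadjusted p under 0.05. Of 21 members on the Diamond-Blackfan anaemia list, RPS29 alone passed, in untreated KO, where 11.7% of all genes were higher and 10.9% lower. The list's median butyrate log2 change was -0.08 in WT and -0.30 in KO, beside -0.08 and -0.32 over all members. FAU, which encodes a ribosomal protein fused to a ubiquitin-like protein, had a log2 change of -0.26 with butyrate in KO and did not pass in any comparison. Annotated transcript length showed little relation to the butyrate changes in KO: across 80 members Spearman's rho was 0.07. These lengths ran from 296 bases (RPS29) to 7686 (RPL37), with 4916 for RPL27A. Lengths of the transcripts made in these cells were not measured, so this value cannot decide whether length mattered.

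Genes that share the TOP tract or serve the same pathway were set beside the members. Of 18 genes with TOP mRNAs, translation factors and others such as HNRNPA1 and NAP1L1, none passed with butyrate. All 18 had log2 changes below 0 in KO (median -0.32) and 13 of 18 did in WT (median -0.09). Of the 2121 genes of at least 100 CPM, 1438 were below 0 in KO (median -0.16) and 1332 in WT (median -0.11). In the interaction all 18 were below 0 (median -0.28) and none passed, beside 1276 of these 2121 genes below 0 (median -0.06). Between genotypes 3 of 18 rose and none fell without treatment, where 11.7% of all genes rose and 10.9% fell. With butyrate 1 rose and 1 fell, where 10.1% rose and 8.89% fell. TPT1, an abundant TOP mRNA, stood at 1010, 1130 and 1060 CPM in untreated WT and at 2110, 1770 and 2520 CPM in untreated KO (log2 change 1.00, SE 0.21, adjusted p = 0.00422). EIF3F, a subunit of an initiation factor, was lower in treated KO (log2 change -0.63, SE 0.20, adjusted p = 0.04). TPT1 lies on chromosome 13 with RPL21, and EIF3F on chromosome 11 with RPLP2, but not among the neighbours within 2 Mb of RPLP2. All tested genes of chromosome 13 had a median of 0.94 without treatment, and those of chromosome 11 had -0.13 with butyrate. The part of location in these changes was not tested.

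Of 9 snoRNA host genes with TOP RNAs, 1 fell with butyrate in KO, where 0.595% of all genes fell. None passed in WT, where 1.80% of all genes rose and 0.55% fell. SNHG8 stood at 63.5, 48.9 and 70.4 CPM in untreated KO and at 27.2, 16.7 and 34.7 CPM in treated KO (log2 change -1.22, SE 0.26, adjusted p = 0.0288). The median of the 9 was -0.54 in KO and -0.18 in WT. Of 46 ribosome biogenesis genes none passed with butyrate in either genotype, with medians of -0.30 in WT and -0.33 in KO and 44 and 45 of 46 below 0. Over the members these medians were -0.08 and -0.32. Over genes of at least 100 CPM they were -0.11 and -0.16, with 1332 and 1438 of 2121 below 0. Of all 15805 genes tested, 7513 were below 0 in WT and 7793 in KO. The list's median interaction was -0.02, beside -0.26 over the members; no gene of either passed in the interaction, and the difference between the list and the members was not tested. The replicate block called 7 of the 46 lower in WT and 3 in KO, where it called 3.14% and 3.92% of all genes lower. Between genotypes 2 rose and 3 fell without treatment (11.7% and 10.9% of all genes), and 1 rose and 1 fell with butyrate (10.1% and 8.89%). GNL3, a nucleolar GTPase, rose in both (log2 change 0.98 and 1.10, adjusted p = 0.0475 and 0.0332), RRN3, an initiation factor of RNA polymerase I, fell without treatment (-0.95, adjusted p = 0.0494), and POLR1C, a subunit of RNA polymerases I and III, fell with butyrate (-0.81, adjusted p = 0.0368).

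Of 14 genes that control TOP mRNAs through mTORC1 and the LARP proteins, none passed with butyrate. Of the 14, 2 were higher and 1 was lower in KO without treatment (11.7% and 10.9% of all genes), and 1 was higher and 1 lower with butyrate (10.1% and 8.89%). RHEB, the GTPase that switches mTORC1 on, stood at 183, 144 and 145 CPM in untreated WT and at 93.3, 93.6 and 91.3 CPM in untreated KO (log2 change -0.76, SE 0.21, adjusted p = 0.0199). With butyrate it was lower in KO by a similar amount (-0.80, SE 0.21, adjusted p = 0.0181). DEPTOR, an mTOR inhibitor, was higher in KO in both comparisons (adjusted p = 0.0202 and 0.0262) but only reached 0.32 ± 0.11 CPM in untreated KO and 1.06 ± 0.67 in treated KO, beside 0.12 ± 0.04 in treated WT.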

How the data were processed

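Counts per gene symbol for 12 libraries (4 groups of 3) were used as the authors deposited them, as a table of whole-number counts. Per the submitters' processing notes, FastQC 0.12.1 and STAR 2.7.11b were used with hg38; the counting tool, annotation, strand setting and any filter are not given in the sources used here. Reads shared by overlapping genes, paralogues or pseudogenes can therefore sit with either gene. Depth was 19963594 to 30348538 counts, and intervals cover counting error only.

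In R 4.3.3, edgeR 4.0.16 kept 15805 genes (filterByExpr, minimum count 10), scaled libraries by TMM and fitted 1 mean per group to all 12 libraries (biological coefficient of variation 0.384). Each of 5 contrasts was tested by quasi-likelihood F, with p-values adjusted by Benjamini-Hochberg over all genes and a threshold of 0.05. DESeq2 1.42.0, other scalings, no filter, a replicate block, leaving out the libraries numbered 1 and leaving out each library in turn were alternatives. The fit was also run on simulated counts, and the outcome is not reported here. Libraries with the same number were treated as pairs in the block because their deviations from group means correlated in every contrast (0.147 to 0.595 over all pairs). Paralogue ratios used 0.5 added to each count. Transcript lengths are those of the shortest complete principal transcript in GENCODE release 29. Positions and promoters are from RefSeq (all 81 members matched by symbol, 64 with a promoter).

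Named genes are SLC48A1, members past the threshold or, where fewer than 3 passed, the 3 highest and 3 lowest log2 changes, paralogue pairs, members with known roles, and from other lists the called genes with the largest rise and fall. RPS9, RPS18, RPS2, RPS23 and the members called by the block were named after their values were seen. The members and lists were chosen with earlier results of these data known.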

Additional observations from a re-analysis of the deposited data

How the results depend on the processing

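The number of members called depended on the fit. With the replicate block it was 1 for butyrate in WT, 5 for butyrate in KO and 10 for KO against WT with butyrate, and it stayed within 1.5 times the main count in the other contrasts. DESeq2 called 1 for butyrate in WT, where it called 1331 genes in all, and 7 for the treated genotype comparison, where it called 3983. Without the libraries numbered 1 the counts were 1 for butyrate in WT, 1 for butyrate in KO, 2 for untreated KO against WT (RPL10 as before and RPL3L, while RPL21, RPS29 and RPL37A lost their calls) and 1 for treated KO against WT (RPL10), with fewer libraries in the fit. That fit called 1884, 2164, 4314 and 4059 genes in all in these comparisons, in the same order. TMM computed without ribosomal genes gave 2 for the untreated genotype comparison, where it called 3547 genes in all. Leaving out 1 library at a time gave 0 to 1 for butyrate in WT and 0 throughout for butyrate in KO and the interaction. It gave 0 to 5 for untreated and 1 to 8 for treated KO against WT. Over all genes these fits called 43 to 1243 and 48 to 1039 for butyrate in WT and in KO. They called 2485 to 4318 and 2014 to 3477 for untreated and treated KO against WT, and 0 to 2 for the interaction.

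The median log2 change of members stayed within 1 SD of library medians under all alternatives. This SD was 0.278, larger than every main median except that of butyrate in KO. A change of sign could therefore stay within it, so this does not show that the medians were stable. Leaving out 1 library, it ranged from -0.18 to -0.03 for butyrate in WT, -0.54 to -0.13 for butyrate in KO, -0.06 to 0.25 and -0.38 to 0.05 for the untreated and treated genotype comparisons, and -0.50 to -0.07 for the interaction. Large to small subunit ratios from median CPM were -0.18 and -0.16 for untreated and treated WT and -0.058 and -0.11 for untreated and treated KO. Without a library the summed ratio ranged from 0.16 to 0.17 in untreated WT, 0.20 to 0.21 in treated WT, 0.11 to 0.18 in untreated KO and 0.20 to 0.23 in treated KO. Shares ranged from 10.7% to 11.3% and 10.2% to 10.9% in untreated and treated WT, and 10.5% to 12.9% and 8.58% to 11.5% in untreated and treated KO.

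Without the libraries numbered 1, signs changed for RPL17 with butyrate in WT (0.57), for RPL17 (-0.26) and RPS27L (-0.043) in the interaction, and for the ratios RPS27L to RPS27 with butyrate in WT (0.11) and RPL7L1 to RPL7 with butyrate in KO (-0.11) and in untreated KO (0.027). A prior count of 2 gave 0.18 for RPL36AL to RPL36A in treated KO. With 1 library left out, log2 changes crossed 0 for RPL17 with butyrate in WT (-0.73 to 0.33), RPS10 with butyrate in KO (-0.047 to 0.98), and RPL17 (-0.056 to 1.01), RPS10 (-0.44 to 1.27) and RPS27L (-0.003 to 0.48) in the interaction. So did these paralogue ratios: RPL39L to RPL39 with butyrate in KO (-0.68 to 0.12) and in the interaction (-0.23 to 0.76), RPS27L to RPS27 with butyrate in WT (-0.64 to 0.004) and in treated KO (-0.40 to 0.25), RPL7L1 to RPL7 with butyrate in KO (-0.33 to 0.41) and in untreated KO (-0.32 to 0.30), and RPL26L1 to RPL26 with butyrate in WT (-0.30 to 0.009). RPL36AL to RPL36A crossed 0 with butyrate in WT (-0.10 to 1.62), in untreated KO (-1.04 to 0.67), in treated KO (-0.42 to 0.57) and in the interaction (-0.68 to 1.03). The cause was not tested. Low counts limit RPL3L, RPL17, RPS10 and RPL36A.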
